A study of Mus musculus with 9 samples.

Results

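The genes described here are 40 genes of mitosis and cytokinesis, taken by symbol from a count table of 15824 mouse genes, and all 40 were found and passed the filter on low counts. They divide into 8 roles: the factors that switch on the mitotic genes, the cyclins with Cdk1, the Aurora and Polo kinases, the chromosomal passenger complex, the spindle checkpoint, the kinetochore, condensin with other chromosome proteins, and cytokinesis. The libraries were made from cardiomyocytes of CD-1 mice at postnatal day 1 (P1), day 14 (P14) and day 56 (P56), 3 libraries at each age. No genotype or treatment is named for any of them and sex is not given. Each P1 library pooled 12 hearts, and each later library 6 to 7. The series' design text describes them as biological triplicates. RNA was depleted of ribosomal RNA. The labels' protocols describe both whole cardiomyocytes separated on a density gradient or by perfusion, with a mention of animals after surgery, and nuclei sorted for Pcm1, and which of them was used for each library is not settled, so the text speaks of libraries.

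Mouse cardiomyocytes divide before birth and leave the cell cycle in the first weeks after it, and the last round often ends without cytokinesis and leaves binucleate cells. Entry into mitosis is driven by Cdk1 with cyclins A and B, whose genes are transcribed late in the cycle together with those of the spindle, the kinetochore and the cleavage furrow. The late genes share a promoter code: the MuvB complex with B-Myb and then Foxm1 works through a short element called CHR (cell cycle genes homology region), and the factor NF-Y binds CCAAT boxes beside it.

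The promoters of 7 genes are shown to let the 3 genes that did not fall (Cenpa, Cenpf and Ncapd2) be read beside 4 that did (Plk1, Cdc20, Ccnb2 and Racgap1). Each line runs 5′ to 3′ on the gene's own strand, from 150 bases before to 50 bases after the RefSeq start site (GRCm38.p6), and capitals mark CHR (TTTGAA) and the CCAAT box, which reads ATTGG where it lies on the opposite strand.
Cenpa, chr5:30666736-30666935, plus strand: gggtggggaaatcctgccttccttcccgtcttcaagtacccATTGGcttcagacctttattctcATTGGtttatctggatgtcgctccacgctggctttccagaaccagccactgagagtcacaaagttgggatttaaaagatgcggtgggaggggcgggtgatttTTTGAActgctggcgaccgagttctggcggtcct
Cenpf, chr1:189688037-189688236, minus strand: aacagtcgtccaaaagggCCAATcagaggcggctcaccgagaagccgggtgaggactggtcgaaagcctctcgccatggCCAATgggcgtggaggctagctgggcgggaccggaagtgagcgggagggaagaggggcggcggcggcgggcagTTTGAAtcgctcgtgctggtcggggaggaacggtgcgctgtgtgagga
Ncapd2, chr6:125191537-125191736, minus strand: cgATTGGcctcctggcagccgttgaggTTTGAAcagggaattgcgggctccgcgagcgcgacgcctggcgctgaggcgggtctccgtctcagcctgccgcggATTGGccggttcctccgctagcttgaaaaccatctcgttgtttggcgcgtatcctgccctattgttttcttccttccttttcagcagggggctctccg
Plk1, chr7:122159285-122159484, plus strand: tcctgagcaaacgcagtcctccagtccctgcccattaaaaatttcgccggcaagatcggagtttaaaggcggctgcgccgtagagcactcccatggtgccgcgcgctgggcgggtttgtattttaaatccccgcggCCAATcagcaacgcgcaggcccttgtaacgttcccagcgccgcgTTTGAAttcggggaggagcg
Cdc20, chr4:118437294-118437493, minus strand: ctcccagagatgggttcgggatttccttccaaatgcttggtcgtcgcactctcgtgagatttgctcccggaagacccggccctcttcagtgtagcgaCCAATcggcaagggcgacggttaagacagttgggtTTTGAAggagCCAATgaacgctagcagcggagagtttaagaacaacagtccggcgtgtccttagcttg
Ccnb2, chr9:70421505-70421704, minus strand: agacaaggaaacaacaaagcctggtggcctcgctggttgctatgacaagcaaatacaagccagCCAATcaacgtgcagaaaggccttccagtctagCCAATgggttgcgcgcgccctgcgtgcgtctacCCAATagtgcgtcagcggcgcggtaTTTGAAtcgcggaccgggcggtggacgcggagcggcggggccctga
Racgap1, chr15:99651607-99651806, minus strand: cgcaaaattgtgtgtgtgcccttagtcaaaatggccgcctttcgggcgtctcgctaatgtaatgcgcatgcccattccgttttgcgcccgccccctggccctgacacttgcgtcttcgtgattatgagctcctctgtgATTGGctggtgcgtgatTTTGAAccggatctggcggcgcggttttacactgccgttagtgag
Cenpa held a CHR that began 16 bases after the start site (counted as position 0) and opposite-strand CCAAT boxes at −109 and −86. Cenpf held a CHR at position 2 and CCAAT boxes at −132 and −71. In Ncapd2 the CHR lay at −123, with opposite-strand CCAAT boxes at −148 and −48 in the printed stretch. The 4 genes shown that fell had a CHR between −18 (Cdc20) and 30 (Plk1), but a CHR farther upstream was not particular to Ncapd2: Mki67, which fell, had its CHRs at −116 and −98. Over the full window of 250 bases before to 50 after the start, 23 of the 33 members with a RefSeq window (69.7%) held a CHR on either strand, against 20.2% of the 27025 genes with a window. A CCAAT box on either strand was present in 24 members (72.7%, against 41.1% of genes), and both motifs in 21 members (63.6%, against 7.97%). A CHR within 50 bases of the start site was found in 21 members (63.6%, against 5.72%). The median log2 change at P56 against P1 was −4.50 in the 23 members with a CHR, −4.68 in the 10 without one and −4.87 in the 7 with no window. Cenpa, Cenpf and Ncapd2 all belong to the 23 with a CHR.

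P1 libraries held 49190887 to 58538025 counts, P14 libraries 36619799 to 38878181 and P56 libraries 45866453 to 49535917. All 12 cardiomyocyte markers were detected in every library. Their summed level was 52794 to 62751 CPM (counts scaled to library size) at P1, 60881 to 93502 CPM at P14 and 55877 to 79780 CPM at P56. Most of it was Ttn and Ryr2 (34461 and 18179 of 62751 CPM in P1 replicate 1). At P14 against P1, 2 of the 12 fell and 3 rose, where 27.5% of all genes fell and 28.4% rose. At P56 against P1, 4 fell and 2 rose, where 31.7% of all genes fell and 30.9% rose. Myh7 and Pcm1 fell in both comparisons and Myh6 rose in both. Markers of other heart cells were far lower and also changed with age. The 12 endothelial markers summed to 74.1 to 102 CPM at P1, 227 to 583 CPM at P14 and 38.2 to 97.4 CPM at P56, and the 12 fibroblast markers to 158 to 318, 219 to 806 and 50.6 to 99.6 CPM at the same ages. Summed levels of 11 leukocyte markers were 13.6 to 15.7, 23.3 to 34.6 and 20.0 to 26.5 CPM at P1, P14 and P56. Much of this was Cx3cr1, at 8.00 to 9.31, 9.57 to 12.0 and 8.79 to 10.9 CPM, which overlaps Wdr48 on the opposite strand. The median log2 change of the 11 was 1.97 at P14 against P1 and 1.19 at P56 against P1. The 8 smooth muscle and pericyte markers summed to 168 to 196, 197 to 296 and 51.9 to 85.2 CPM at P1, P14 and P56. The 5 epicardial markers summed to 5.69 to 8.47, 11.4 to 27.6 and 0.936 to 2.29 CPM. Of these 48 markers, 36 rose and 3 fell at P14 against P1, and 35 fell and none rose at P56 against P14. Their mean log2 CPM in a library is called the marker score. The epicardial marker Msln was at 0 counts in P56 replicates 2 and 3, and no other of these markers was at 0 in any library.

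Nearly all mitosis and cytokinesis transcripts fell in each of the 2 intervals. At P14 against P1, 37 of the 40 fell and 1 rose, where 27.5% of all 15817 genes tested fell and 28.4% rose (adjusted p under 0.05, quasi-likelihood test of edgeR, adjusted by Benjamini and Hochberg over all genes, n = 3 libraries per age). At P56 against P14, 36 fell and 2 rose, where 28.5% of all genes fell and 27.5% rose. Over the whole span, P56 against P1, 37 fell and 2 rose, against 31.7% and 30.9% of all genes. The median log2 change of the 40 was −2.26 at P14 against P1, −2.32 at P56 against P14 and −4.66 at P56 against P1, where the median of all genes was 0.001, −0.019 and −0.028. Some difference among the 3 ages passed the test in 39 of 40 members, all but Ncapd2, and in 78% of all genes. In bulk libraries, fewer cells of a type and less of a transcript per cell cannot be told apart, and this holds for every value below.

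Of the 37 transcripts that fell over the whole span, the share of the P1 level left at P14 ran from 10.6% (Bub1) to 49.6% (Plk1), with a median of 19.7%. At P56 it ran from 0.953% (Bub1) to 22.8% (Ccnb2), with a median of 3.45%, and 24 of them were below 5%. Their summed level was 375, 380 and 421 CPM in the P1 libraries, 110, 83.4 and 59.2 CPM in the P14 libraries and 29.4, 28.6 and 22.8 CPM in the P56 libraries. Levels at P56 rest on few reads: 15 to 20 members had fewer than 10 counts in a P56 library, and Ccnb1, Aurkb, Cdc20 and Spc25 had 0 counts in P56 replicate 3, which allows a level of up to 0.0668 CPM (3 counts, counting error only).

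**Figure D1:**
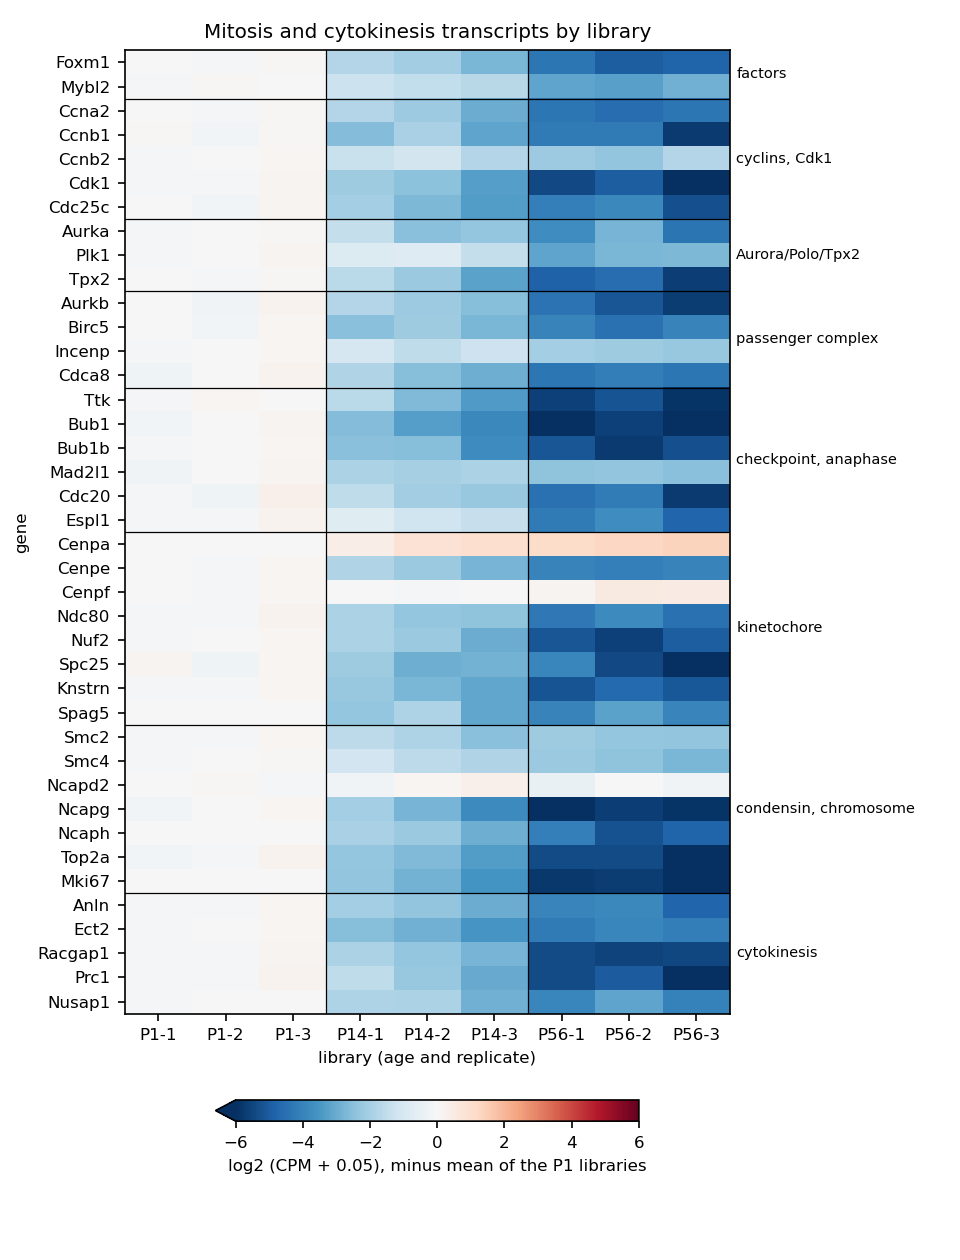
Level of each of the 40 transcripts in each of the 9 libraries, as log2 (CPM + 0.05) minus the mean of the 3 P1 libraries, with values under −6 drawn at the end of the scale and genes grouped by role. The rows of Cenpa, Cenpf and Ncapd2 stay pale or turn red while the other 37 turn blue at P14 and darker at P56, and the P14 replicate 3 column is the darkest of the P14 columns in 33 of the 37.

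Both transcription factors of the mitotic genes fell in both intervals. Foxm1, the forkhead factor of the late cell cycle, was at 5.14, 4.70 and 5.26 CPM at P1, 1.43, 1.16 and 0.717 CPM at P14, and 0.204, 0.115 and 0.134 CPM at P56. Its log2 change was −2.18 ± 0.23 (SE) at P14 against P1 (adjusted p = 3.98e-05) and −2.85 ± 0.32 at P56 against P14 (adjusted p = 7.14e-05), and no ages overlapped. Mybl2, which encodes B-Myb, was at 3.64, 4.11 and 3.93 CPM at P1, 1.58, 1.38 and 1.19 CPM at P14, and 0.385, 0.367 and 0.490 CPM at P56. Its log2 change over the whole span was −3.22 ± 0.18, against −5.04 ± 0.29 for Foxm1.

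All 5 genes of the cyclin and Cdk1 group fell in both intervals. Cdk1, the kinase that drives entry into mitosis, was at 9.93, 10.2 and 12.1 CPM at P1, 2.40, 1.92 and 1.02 CPM at P14, and 0.204, 0.298 and 0.111 CPM at P56, with no overlap between ages. Its log2 change was −2.58 ± 0.28 at P14 against P1 and −3.11 ± 0.38 at P56 against P14. Ccnb2, cyclin B2, kept the largest share of its P1 level among the transcripts that fell. Its libraries were at 4.33, 4.83 and 5.17 CPM at P1, 1.84, 2.22 and 1.38 CPM at P14, and 0.997, 0.895 and 1.38 CPM at P56, so that the highest P56 library stood level with the lowest P14 library. The change at P56 against P14 (−0.73 ± 0.22, adjusted p = 0.0181) was lost in 5 of 17 alternative analyses. Cyclin A2 (Ccna2), cyclin B1 (Ccnb1) and the phosphatase that activates Cdk1 (Cdc25c) had log2 changes of −4.69 ± 0.30, −5.38 ± 0.51 and −4.87 ± 0.44 at P56 against P1. Ccna2 overlaps Exosc9 on the opposite strand over 863 bases, and whether counting used strand is not given, so its value is uncertain to that extent. Exosc9 was at 8.36 ± 0.441 CPM at P56, far above Ccna2 at 0.211 ± 0.0237 CPM (SD, n = 3).

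The mitotic kinases and the spindle activator also fell in both intervals. Tpx2, which activates Aurora A on spindle microtubules, was at 12.4, 11.8 and 13.3 CPM at P1, 4.06, 2.68 and 1.30 CPM at P14, and 0.385, 0.482 and 0.200 CPM at P56. Plk1, the Polo kinase, had the smallest fall of the group over the whole span and lost the least of any of the 37 in the first interval. It was at 1.83, 1.93 and 2.23 CPM at P1, 1.12, 1.14 and 0.717 CPM at P14, and 0.181, 0.253 and 0.267 CPM at P56. Its log2 change was −1.01 ± 0.22 at P14 against P1 (adjusted p = 0.00324) and −2.08 ± 0.27 at P56 against P14 (adjusted p = 0.000175), with no overlap. At P56 against P1 the log2 change was −3.70 ± 0.41 for Aurka, Aurora A itself, and −5.13 ± 0.41 for Tpx2.

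In the chromosomal passenger complex, which corrects attachments of chromosomes to the spindle and later guides cytokinesis, the kinase fell most and the scaffold least. Aurkb, Aurora B, was at 2.53, 2.16 and 2.88 CPM at P1, 0.715, 0.514 and 0.386 CPM at P14, and 0.0679, 0.0230 and 0 CPM at P56, which are 3, 1 and 0 counts. Incenp, the scaffold subunit, was at 12.4, 12.8 and 14.2 CPM at P1, 6.44, 4.49 and 5.57 CPM at P14, and 3.19, 2.96 and 2.67 CPM at P56. The ages did not overlap in either gene. The log2 change at P56 against P1 was −6.26 ± 0.48 in Aurkb and −2.15 ± 0.14 in Incenp, with survivin (Birc5, −4.51 ± 0.24) and borealin (Cdca8, −4.62 ± 0.33) between them. Cdca8 overlaps 9930104L06Rik on the opposite strand over 2264 bases, so its value is uncertain to that extent. At P56, 9930104L06Rik was at 5.86 ± 1.05 CPM and Cdca8 at 0.166 ± 0.0153 CPM (SD, n = 3).

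Among the 6 genes of the spindle checkpoint and anaphase, all fell in both intervals, by widely different amounts. Bub1, a checkpoint kinase of the kinetochore, had the largest fall of all 40 genes. It was at 7.00, 7.94 and 8.92 CPM at P1, 1.28, 0.757 and 0.497 CPM at P14, and 0.0679, 0.115 and 0.0446 CPM at P56 (log2 change −6.67 ± 0.39 at P56 against P1, adjusted p = 3.43e-07). Bub1b, which encodes the checkpoint protein BubR1, was at 10.9, 11.2 and 12.2 CPM at P1, 1.94, 1.92 and 0.800 CPM at P14, and 0.272, 0.161 and 0.245 CPM at P56. Mad2l1, which encodes the checkpoint inhibitor Mad2, kept more than these kinases. Its libraries were at 3.72, 4.45 and 4.86 CPM at P1, 1.12, 1.05 and 1.10 CPM at P14, and 0.770, 0.804 and 0.713 CPM at P56, so that the second step was small and the libraries of the 2 later ages still did not overlap. Its log2 change was −1.99 ± 0.15 at P14 against P1 and −0.52 ± 0.17 at P56 against P14 (adjusted p = 0.0245), and the second call was lost in 6 of 17 alternatives. Ttk, which encodes the checkpoint kinase Mps1, and Cdc20, the activator of the anaphase-promoting complex, had log2 changes of −6.08 ± 0.48 and −5.56 ± 0.49 at P56 against P1. Cdc20 shares 53 exonic bases with Elovl1 on the opposite strand, so its value is uncertain to that extent. Espl1, separase, which cuts cohesin at anaphase, is described with the 2 intervals below.

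The kinetochore group split. Cenpe, Ndc80, Nuf2, Spc25, Knstrn and Spag5 fell in both intervals, while Cenpa and Cenpf did not fall in either. Nuf2, a subunit of the Ndc80 complex that binds microtubules, was at 5.25, 5.78 and 6.11 CPM at P1, 1.48, 1.19 and 0.690 CPM at P14, and 0.113, 0.0689 and 0.134 CPM at P56 (log2 change −5.72 ± 0.32 at P56 against P1). Its partners Ndc80 and Spc25 had −4.47 ± 0.25 and −5.61 ± 0.56. Spag5, the spindle protein astrin, was at 5.53, 5.55 and 5.62 CPM at P1, 1.07, 1.49 and 0.607 CPM at P14, and 0.294, 0.551 and 0.312 CPM at P56 (−3.84 ± 0.32). Knstrn, the astrin partner kinastrin, had −5.26 ± 0.26 and the kinetochore motor Cenpe −4.12 ± 0.23.

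Cenpa, the histone H3 variant that marks the centromere, rose at each age. It was at 22.7, 22.0 and 22.2 CPM at P1, 29.8, 40.3 and 44.8 CPM at P14, and 47.2, 53.1 and 57.1 CPM at P56. The 3 ages did not overlap, and the P14 libraries spread most. Its log2 change was 0.78 ± 0.13 at P14 against P1 (adjusted p = 0.000855), 0.45 ± 0.13 at P56 against P14 (adjusted p = 0.0152) and 1.23 ± 0.13 at P56 against P1 (adjusted p = 2.51e-05, a 2.35-fold higher level). The rises at P14 against P1 and at P56 against P1 kept their calls in every alternative run, with log2 changes of 0.65 to 1.24 and 1.03 to 1.31. The rise at P56 against P14 lost its call without P56 replicate 3 (0.39, adjusted p = 0.0587) and changed sign in the fit that holds the marker score (−0.21, adjusted p = 0.442).

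Cenpa lies at chr5:30666777-30674830 on the plus strand (GRCm38, ENSMUSG00000029177), and no other annotated gene overlaps it. Its nearest protein-coding neighbour, Slc35f6, a solute carrier gene on the same strand 7047 bases away, averaged 16.5 ± 0.806 CPM in P1, 20.5 ± 1.52 CPM in P14 and 40.8 ± 3.55 CPM in P56 libraries (SD, n = 3), a log2 change of 1.31 at P56 against P1 (adjusted p = 8.93e-07). Whether reads from upstream transcription entered the Cenpa count was not tested. Of the genes whose products place Cenpa at the centromere, all 10 tested fell at P14 against P1, where 27.5% of all genes fell. At P56 against P14, 3 fell, 2 rose and 5 did not pass the threshold (median 0.007), where 28.5% of all genes fell and 27.5% rose. Over the whole span 9 fell and none rose, where 31.7% of all genes fell. Hjurp, the Cenpa chaperone, had a log2 change of −1.99 ± 0.09 at P56 against P1, and Mis18a of the Mis18 licensing complex −2.10 ± 0.26. Cenpc1, which binds Cenpa nucleosomes, was the gene not past the threshold over the whole span (−0.11 ± 0.09, adjusted p = 0.269).

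Cenpf, a large coiled-coil protein of the late-cycle nucleus and outer kinetochore, held its level at first and was higher at P56. It was at 14.4, 13.1 and 15.7 CPM at P1, 13.9, 13.5 and 14.2 CPM at P14, and 16.2, 20.7 and 20.2 CPM at P56. The P14 libraries lay within the P1 range, and the P56 libraries lay above both other ages. The log2 change was −0.05 ± 0.11 at P14 against P1 (adjusted p = 0.71), 0.45 ± 0.11 at P56 against P14 (adjusted p = 0.00557) and 0.40 ± 0.11 at P56 against P1 (adjusted p = 0.0083). The last of these was called in every alternative (0.29 to 0.51), and the second was lost only in the fit that holds the marker score (0.27, adjusted p = 0.447). Cenpf lies at chr1:189640606-189688086 on the minus strand (ENSMUSG00000026605), where the one overlapping gene is a processed pseudogene in an intron.

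Ncapd2, a HEAT-repeat subunit of condensin I, passed the test in no comparison. It was at 34.0, 34.8 and 32.3 CPM at P1, 29.5, 36.6 and 41.2 CPM at P14, and 25.0, 33.2 and 29.5 CPM at P56, so that all 3 ages overlapped. The log2 change was 0.09 ± 0.13 at P14 against P1 (adjusted p = 0.595), −0.29 ± 0.13 at P56 against P14 (adjusted p = 0.0835) and −0.20 ± 0.13 at P56 against P1 (adjusted p = 0.196). The second value passed the threshold in 5 of 17 alternatives, for example without P14 replicate 1 (−0.41, adjusted p = 0.00907). The gene (chr6:125168007-125191701, minus strand, ENSMUSG00000038252) shares 237 exonic bases with the small RNA gene Scarna10 on its own strand, so its count is uncertain to that extent.

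**Figure D2:**
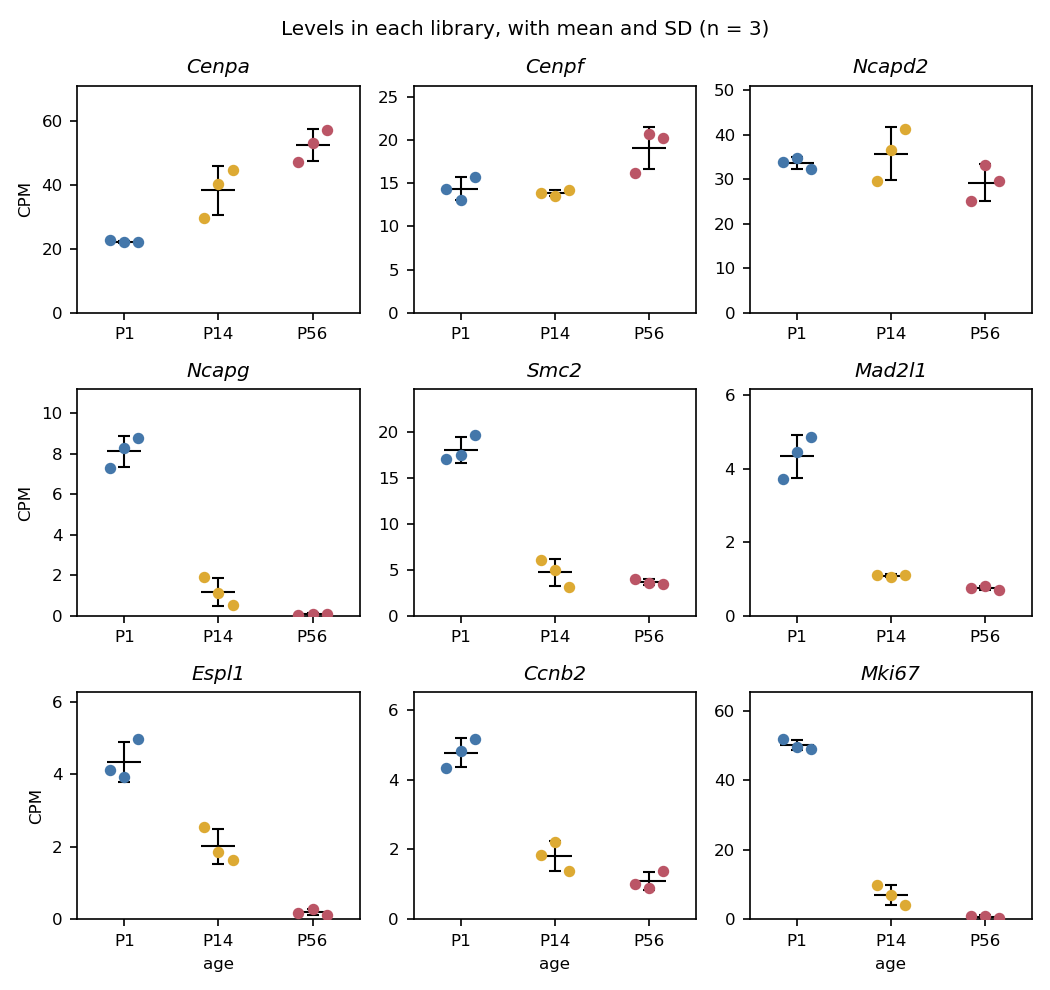
Level in CPM of 9 transcripts in each library (points), with the mean (long bar) and SD (n = 3) at each age, each panel on its own axis from 0. Cenpa climbs at each age, Cenpf stands above its earlier levels at P56, Ncapd2 overlaps at all ages, and the other 6 drop at P14, with smaller steps of Smc2 and Mad2l1 afterwards.

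The other condensin subunits and chromosome proteins fell by P14. Ncapg, another subunit of condensin I, had the second largest fall of the 40, at 7.29, 8.26 and 8.79 CPM at P1, 1.92, 1.14 and 0.524 CPM at P14, and 0.0453, 0.115 and 0.0891 CPM at P56. Its log2 change at P56 against P1 was −6.57 ± 0.48, against −0.20 ± 0.13 for Ncapd2 of the same complex and −4.84 ± 0.31 for Ncaph, the kleisin subunit. Ncapg overlaps Lcorl on the opposite strand, which was at 83.9 ± 6.22 CPM at P56 (SD, n = 3). The ATPase subunits Smc2 and Smc4, which condensin I and II share, kept more of their level. Smc2 was at 17.1, 17.5 and 19.8 CPM at P1, 6.13, 4.95 and 3.15 CPM at P14, and 4.05, 3.56 and 3.45 CPM at P56, and the libraries of the 2 later ages overlapped (−0.36 ± 0.21 at P56 against P14, adjusted p = 0.156). That change passed the threshold in a fit with offsets for GC content (−0.56, adjusted p = 0.0165) and without P14 replicate 3 (−0.59, adjusted p = 0.00482). Smc4 was at 45.2, 47.1 and 50.7 CPM at P1, 21.5, 15.9 and 13.7 CPM at P14, and 10.1, 8.79 and 7.00 CPM at P56, with no overlap (−2.47 ± 0.18 at P56 against P1). Mki67, the proliferation marker that coats mitotic chromosomes, was at 51.8, 49.6 and 49.0 CPM at P1, 9.74, 7.00 and 4.08 CPM at P14, and 0.861, 0.918 and 0.267 CPM at P56 (−6.20 ± 0.39). Top2a, the topoisomerase that untangles sister chromatids, had −5.99 ± 0.45. Its 3 counts in P56 replicate 3, against 25 in each of the other P56 libraries, are the lowest of its 9 values.

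The genes of condensin II moved in both directions. Of the 4 tested, Ncapg2 fell in both intervals (−3.33 ± 0.22 at P56 against P1) and Ncaph2 fell over the whole span (−0.59 ± 0.07). Ncaph2 shares 829 exonic bases with Sco2 on the opposite strand, so its value is uncertain. Ncapd3, the condensin II counterpart of Ncapd2, fell at P14 against P1 (−0.65 ± 0.06) and rose at P56 against P14 (0.58 ± 0.06). Mcph1, microcephalin, an inhibitor of condensin II, fell at P14 against P1 (−0.41 ± 0.05) but rose over the whole span (0.32 ± 0.05), and it overlaps Angpt2 on the opposite strand.

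All 5 genes of the spindle midzone and cytokinesis fell in both intervals. Ect2, the exchange factor that activates RhoA at the cleavage furrow, was the second most abundant of the 40 per kilobase of exon at P1 (5.59 ± 0.472 CPM per kilobase, SD, n = 3). That rank assumes that only exons were counted, which is not given. Ect2 was at 27.9, 29.5 and 32.9 CPM at P1, 5.06, 4.00 and 2.51 CPM at P14, and 1.54, 1.95 and 1.65 CPM at P56, with no overlap. Prc1, which bundles midzone microtubules, was at 9.85, 9.44 and 12.1 CPM at P1, 3.53, 2.08 and 1.24 CPM at P14, and 0.204, 0.276 and 0.0668 CPM at P56 (−5.83 ± 0.45 at P56 against P1). Nusap1, a spindle-bundling protein, had the smallest fall of the group, at 5.56, 6.01 and 6.05 CPM at P1, 1.58, 1.51 and 0.745 CPM at P14, and 0.340, 0.620 and 0.312 CPM at P56 (−3.79 ± 0.31). Racgap1, the centralspindlin subunit that recruits Ect2, and anillin (Anln), the scaffold of the contractile ring, had −5.71 ± 0.26 and −4.19 ± 0.27. Prc1 and Nusap1 overlap Rccd1 and Oip5 on the opposite strand.

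**Figure D3:**
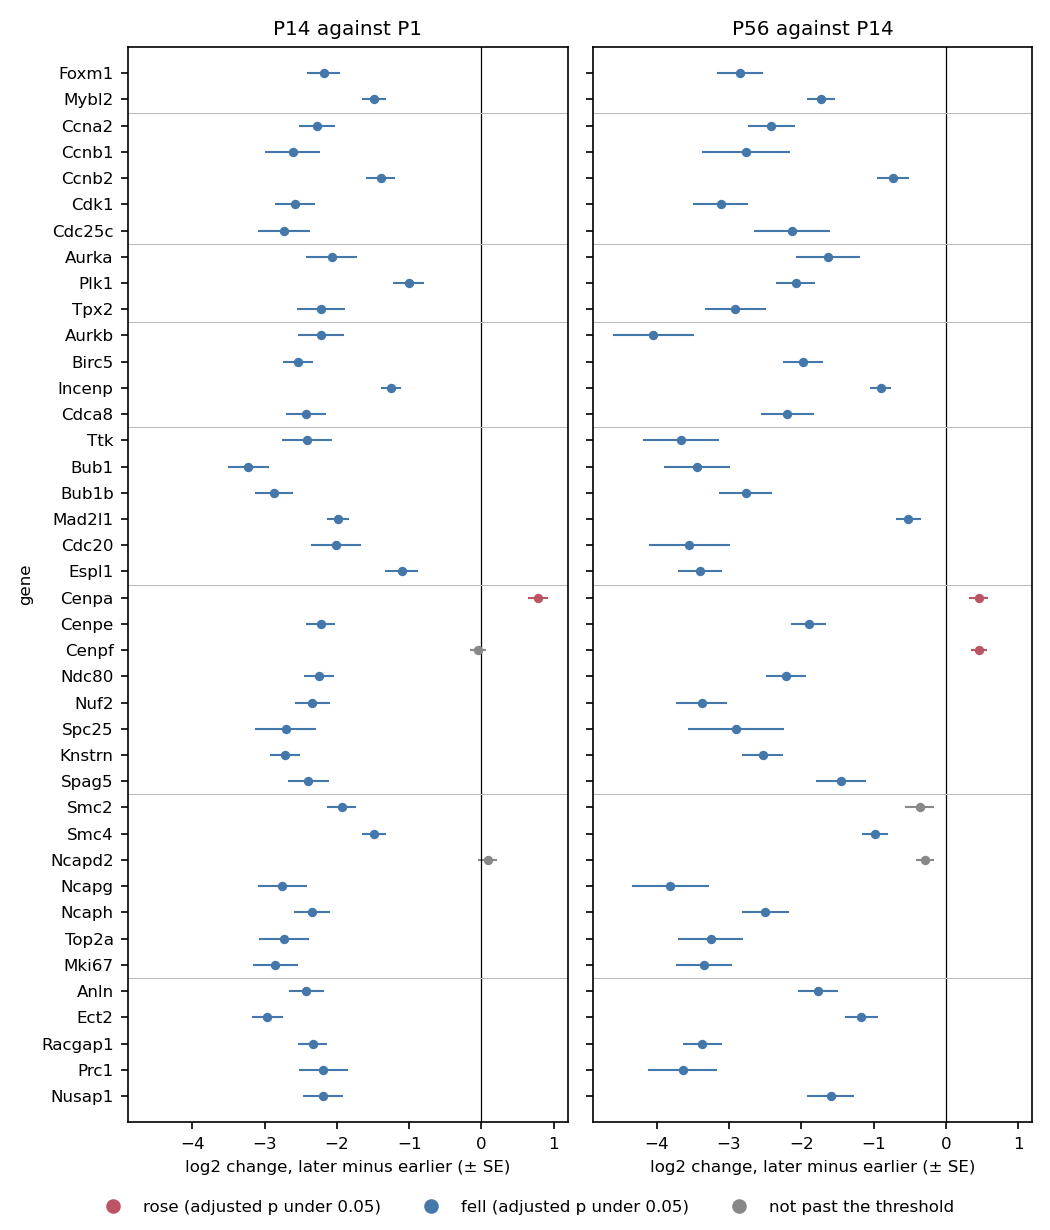
Log2 change ± SE of each of the 40 genes at P14 against P1 (left) and at P56 against P14 (right), on one scale and grouped by role, coloured by whether the change passed adjusted p under 0.05. Cenpa and Cenpf are the only genes right of 0 with a call. Some of the others lie nearer to 0 on the right than on the left, with Ccnb2, Mad2l1, Ect2 and Smc2 among them. Others lie farther from 0 on the right, with Aurkb, Espl1 and Prc1 among them.

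The make-up of the mitotic transcripts differed between ages. Cenpa, Cenpf and Ncapd2 were grouped because they did not fall in these same libraries. A rise in their joint share therefore follows from the fall of the other genes and is not a separate result. Cenpa, Cenpf and Ncapd2 together held 15.9%, 15.5% and 14.3% of the counts of all 40 genes in the P1 libraries, 40.0%, 52.0% and 62.9% in the P14 libraries and 75.1%, 78.9% and 82.4% in the P56 libraries. Per kilobase of exon, Smc4 led at P1 (9.15 ± 0.539 CPM per kilobase), followed by Ect2, Ncapd2, Mki67 and Cenpa. At P56 Cenpa led (8.95 ± 0.853), followed by Ncapd2 (4.67 ± 0.658), Smc4 (1.66 ± 0.297) and Cenpf (1.23 ± 0.158), which was 29th of 40 at P1. The spreads of Cenpa, Ncapd2 and Smc4 at P56 do not meet, while those of Smc4 and Cenpf overlap. The exon length used for Cenpa, 5860 bases, joins all annotated transcripts, and a level per kilobase of a shorter transcript would be higher. Whether exons or whole genes were counted is not given, and these ranks assume that only exons were. Exons make up 5386 of the 56657 bases of Ect2 but 5860 of the 8054 bases of Cenpa, so the order could differ if introns were counted.

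Whether a gene fell more in one interval than in the other was tested as the log2 change at P56 against P14 minus that at P14 against P1. Only 5 of the 40 genes passed: the second change was lower in 1 and higher in 4, where 26% and 24.1% of all genes passed in these directions. The intervals are 13 and 42 days long, so equal changes are not equal rates. Espl1 was at 4.13, 3.92 and 4.97 CPM at P1, 2.56, 1.87 and 1.63 CPM at P14, and 0.181, 0.276 and 0.111 CPM at P56. It dropped mostly in the second interval (−1.10 ± 0.22, then −3.40 ± 0.30, difference −2.30 ± 0.45, adjusted p = 0.00223). Ect2 dropped mostly in the first (−2.96 ± 0.21, then −1.17 ± 0.23, difference 1.79 ± 0.38, adjusted p = 0.00357), as did Smc2 (difference 1.57 ± 0.36, adjusted p = 0.00516) and Mad2l1 (1.46 ± 0.29, adjusted p = 0.00226). Cenpf had a higher second change by 0.51 ± 0.19 (adjusted p = 0.0494), a call lost in 10 of 16 alternatives. Ect2 and Smc2 kept their calls in every alternative, and Espl1 and Mad2l1 in all but the fit with the marker score. The P14 libraries weigh on this test more than on the others. Without P14 replicate 3, 9 genes had a lower second change, among them Plk1 (−1.44, adjusted p = 0.0153) and Racgap1 (−1.43, adjusted p = 0.00626). The number was 3 without P14 replicate 1 and 2 without P56 replicate 1. The shares of all genes called in these fits are not given.

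The P14 libraries were not alike. Of the 37 transcripts that fell, 32 were highest in P14 replicate 1 and 33 lowest in P14 replicate 3. Markers of other heart cells went in the same order: the marker score was 3.53, 3.07 and 2.36 in P14 replicates 1, 2 and 3, and the endothelial markers summed to 583, 373 and 227 CPM. Cenpa ran the opposite way in these libraries (29.8, 40.3 and 44.8 CPM), as did Ncapd2 (29.5, 36.6 and 41.2 CPM). At P56 the scores were 1.46, 0.837 and 0.34, beside 29.4, 28.6 and 22.8 CPM of the 37 transcripts and 47.2, 53.1 and 57.1 CPM of Cenpa. At P1 the scores were 1.56, 1.19 and 1.76, below all P14 scores, while the 37 transcripts summed to 375, 380 and 421 CPM. With 3 libraries per age these are descriptions.

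**Figure D4:**
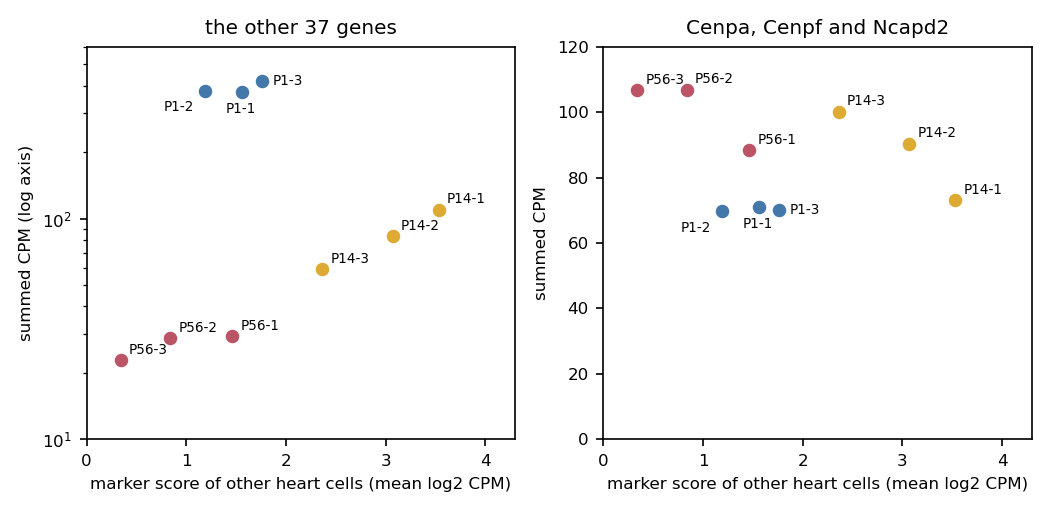
Summed CPM of the 37 transcripts that fell (left, log axis) and of Cenpa, Cenpf and Ncapd2 (right, linear axis from 0) against the marker score of other heart cells in each of the 9 libraries (blue P1, yellow P14, red P56). The 37 transcripts are highest in the P1 libraries, whose scores are below 2, and within P14 the library with the highest score has the highest sum on the left and the lowest on the right.

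With the marker score as a term beside age, far fewer falls passed the threshold in the second interval. At P14 against P1, 37 genes fell and 2 rose in this fit (median −3.26, against −2.26 with age only), Ncapd2 joining Cenpa (0.52, adjusted p = 0.0138). At P56 against P1, 38 fell and 2 rose (median −4.31, against −4.66), with Ncapd2 now among those that fell (−0.40, adjusted p = 0.00457). At P56 against P14, 8 genes fell and none rose (median −1.28): Foxm1, Mybl2, Espl1, Nuf2, Knstrn, Mki67, Racgap1 and Ncapd2 (−0.92, adjusted p = 0.0062). Smc2, not past the threshold in either fit, changed sign in this comparison (0.68, adjusted p = 0.123). The shares of all genes called in this fit are not given, so its counts of members have no background here. The median change of all genes in it was −0.034 at P14 against P1, 0.034 at P56 against P14 and −0.019 at P56 against P1. The score separates P14 from the other ages, so that part of a difference between P14 and P56 can be assigned to either term, and how much of the second step belongs to other cells cannot be told apart from age in these libraries.

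**Figure D5:**
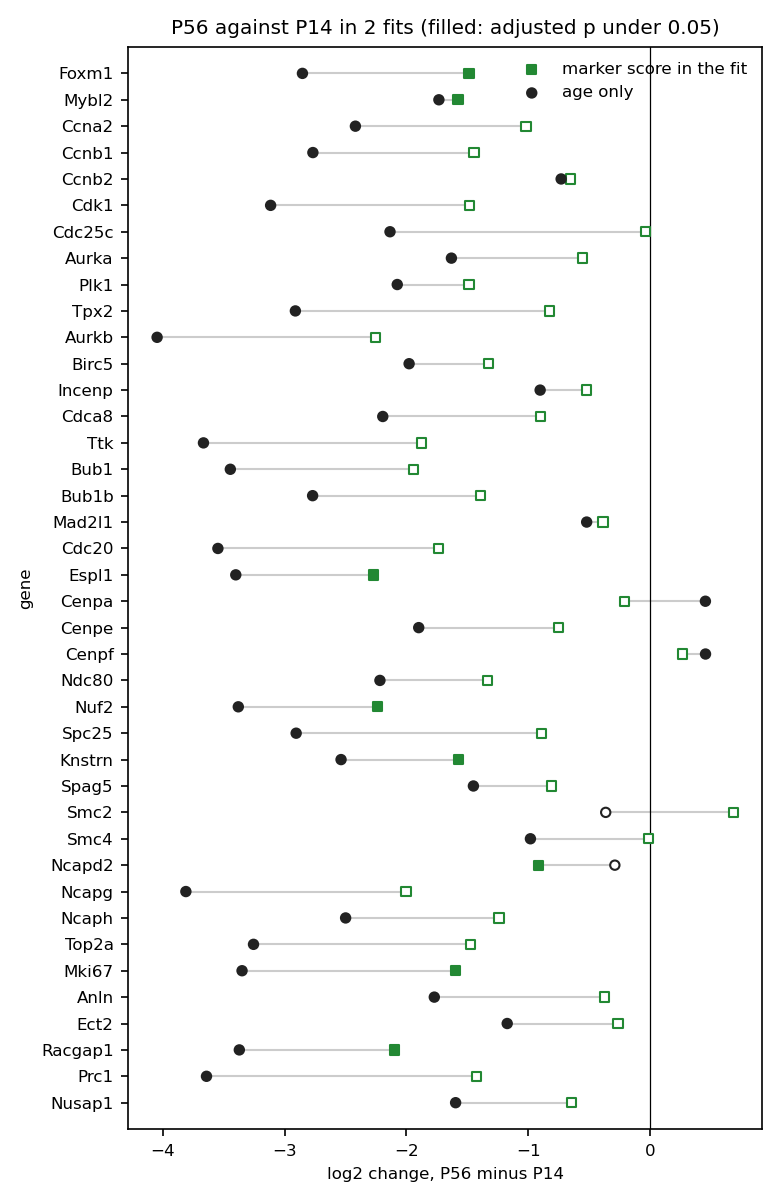
Log2 change at P56 against P14 of each gene in the fit with age only (black circles) and in the fit with the marker score as a further term (green squares), filled where adjusted p was under 0.05. Nearly all squares lie closer to 0 than their circles, 8 squares are filled, and Cenpa crosses 0.

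Other genes of mitosis outside the 40 were read from lists by function, with the counts of all genes given above as their background. The 30 other spindle and cytokinesis genes came closest to the members: 26 fell and 1 rose at P14 against P1, and 25 fell and none rose at P56 against P1 (median −4.15). Among them the depolymerising kinesin Kif2c had a log2 change of −6.03 ± 0.46 at P56 against P1, the hyaluronan and microtubule-binding protein Hmmr −5.89 ± 0.44, and the spindle protein Dlgap5 −5.87 ± 0.40. These sizes rest on few reads, with 3, 1 and 2 counts of Kif2c and 3, 7 and 1 of Dlgap5 in the P56 libraries. Of 31 other centromere and kinetochore genes, 25 fell and 1 rose at P14 against P1, and 26 fell and 3 rose at P56 against P1 (median −1.72). The outer kinetochore genes Ska1 (−7.54 ± 0.57), Kntc1 (−6.38 ± 0.44) and Casc5 (−5.91 ± 0.43) fell most. In the P56 libraries Ska1 had 3, 0 and 0 counts and Kntc1 13, 7 and 1, so the sizes and order of these falls are imprecise. The 3 that rose were the cohesin protector Sgol2a (1.20 ± 0.10), the checkpoint gene Zw10 (0.52 ± 0.08) and Cenpq (0.44 ± 0.13). Sgol2a overlaps Kctd18 on the opposite strand over 22986 bases and Cenpq overlaps Mut, so these values are uncertain.

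Of 21 regulators of mitotic entry and exit, 17 fell and none rose at P14 against P1, and 16 fell and 3 rose at P56 against P1 (median −2.73). The kinases Pbk (−6.84 ± 0.66) and Melk (−6.53 ± 0.47) and the Cdk subunit Cks2 (−5.47 ± 0.31) fell most. In the P56 libraries Pbk had 1, 2 and 0 counts, Melk 0, 5 and 7 and Cks2 1, 3 and 3, so these sizes are imprecise. Those that rose were the phosphatase Cdc14b (0.61 ± 0.05), the phosphatase inhibitor Arpp19 (0.59 ± 0.08) and the phosphatase subunit Ppp2r2a (0.36 ± 0.06). Cdc14b overlaps 1810034E14Rik on the opposite strand over 23153 bases, so its value is uncertain. Of 19 genes of the anaphase-promoting complex and its partners, 13 fell and 1 rose at P56 against P1, mostly by little (median −0.30). Its E2 enzyme Ube2c (−4.40 ± 0.49), its inhibitor Fbxo5 (−2.07 ± 0.21) and its substrate securin, Pttg1 (−1.57 ± 0.25), had the largest falls. Ube2c had 2, 2 and 6 counts in the P56 libraries. Of 14 cohesin genes, 7 fell and 3 rose over the whole span (median −0.19), where 31.7% of all genes fell and 30.9% rose. The factors that establish and lock cohesion in S phase, Esco2 (−4.87 ± 0.28) and sororin, Cdca5 (−5.78 ± 0.59), fell steeply. The size for Cdca5 is imprecise, with 0, 2 and 0 counts in the P56 libraries. The acetyltransferase Esco1 (0.59 ± 0.07), the deacetylase Hdac8 (0.54 ± 0.06) and the release factor Wapl (0.14 ± 0.06) rose. Hdac8 overlaps Gm14858 on the opposite strand over 80860 bases, so its value is uncertain.

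At P56 against P14, 23 of the 30 other spindle and cytokinesis genes fell and 2 rose, 17 of the 31 other centromere and kinetochore genes fell and 7 rose, and 11 of the 21 entry and exit regulators fell and 4 rose. In the same interval 5 of the 19 genes of the anaphase-promoting complex fell and 4 rose, and 3 of the 14 cohesin genes fell and 5 rose. Over all genes, 28.5% fell and 27.5% rose in this interval, and the anaphase-promoting and cohesin lists stood near these shares.

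The 5 core genes of MuvB, the complex that reads the CHR, did not move together. At P14 against P1, 3 fell and 2 rose, where 27.5% of all genes fell and 28.4% rose. At P56 against P1, Lin9 (−1.40 ± 0.09), Rbbp4 (−0.73 ± 0.06) and Lin54, its DNA-binding subunit (−0.63 ± 0.08), fell. Lin52 rose (0.86 ± 0.06) and Lin37 did not pass the threshold (0.42 ± 0.17, adjusted p = 0.051). Rbbp4 shares 782 exonic bases with Sync and 796 with Gm26722 on the opposite strand, so its value is uncertain. At P56 against P14, none of the 5 fell and Lin52 rose (0.64 ± 0.06), in the interval in which Foxm1 and Mybl2 fell further.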

How the data were processed

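Values are whole-number counts per gene, deposited by the authors in 1 table of 15824 genes and 9 libraries. The tools named in the submitters' processing notes are featureCounts 1.4.2, STAR 2.4.0g1 and, for base calls, bcl2fastq 2.17.1.14, with build GRCm38. The sources used here do not say whether counting used strand, or exons or whole genes. The smallest mean count of a gene was 10 per library.

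Counts were fitted with edgeR 4.0.16 in R 4.3.3 (filterByExpr, which removed 7 genes and left 15817, TMM scaling, glmQLFit, and glmQLFTest with Benjamini-Hochberg adjustment over all genes at 0.05). A single fit of age to the 9 libraries gave 1 common spread (biological coefficient of variation 13.9%). CPM use the TMM-scaled library sizes. An SE is the log2 change divided by the square root of F. Libraries of 1 age differed by more than counting error (chi-square per degree of freedom 5.48 to 101). Gene positions and exon lengths come from the GENCODE M21 annotation, and promoter windows from RefSeq.

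The members and lists were chosen with earlier results of these data known. Full values are given for members not past the threshold downward in a comparison and, per role, for the member of highest level and those of largest and smallest fall over the whole span. From each further list, the 3 genes that passed and changed most in each direction are named, and any gene of lists of 10 or fewer, except 1 that is not reported here. The overlap, motif and marker values are descriptions. Whole-gene positions are given for Cenpa, Cenpf and Ncapd2 alone. The alternatives were another tool (DESeq2 1.42.0), scaling, filters, a replicate block, the marker score, GC offsets, fits of 2 ages only and each library left out. The libraries were not treated as paired by replicate number, since their deviations did not correlate in every pair. This does not show that no pairing exists.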

Additional observations from a re-analysis of the deposited data

How the results depend on the processing

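Of 17 alternatives, those other than the marker score, the GC offsets and the leaving out of single libraries kept every count of members within 1.5 times its value. With the marker score in the fit, 2 members rose at P14 against P1 (median −3.26), 8 fell and 0 rose at P56 against P14 (median −1.28), the median at P56 against P1 was −4.31, and the second change was lower in 2 and higher in 8. With GC offsets it was lower in 3. The shares of all genes called in the alternatives are not given beside these counts. Leaving out 1 library in turn moved the median at P56 against P14 between −2.56 and −2.06, the members that rose there between 1 and 2, and those with a lower second change between 1 and 9.

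Apart from Cenpa, signs turned only in values that passed no threshold. For Cenpf at P14 against P1 they were 0.077 with the marker score and 0.080 with GC offsets, and −0.12 to 0.018 with 1 library left out, positive without P1 replicate 3. For Ncapd2 at P14 against P1 they were −0.17 with GC offsets and −0.0275 to 0.21 with 1 library left out, negative without P14 replicate 3, and its difference between the intervals was 0.17 with GC offsets. With the marker score, Smc2 stood at 0.68 at P56 against P14 and the difference between the intervals of Racgap1 at 1.16. Cenpa at P56 against P14 turned to −0.21 with the marker score, having been called without it. In each case the cause was not tested.

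Deviations of libraries with the same replicate number correlated at −0.317 to 0.624 across ages, and not every library correlated best with its own number. A fit with the replicate block called 37 falls and 1 rise at P14 against P1, 37 and 2 at P56 against P14, and 37 and 2 at P56 against P1. It added the call of Ncapd2 at P56 against P14 (−0.29, adjusted p = 0.047) and dropped that of Cenpf for the difference between the intervals (0.50, adjusted p = 0.0506). Upper quartile scaling moved the median of all genes at P56 against P1 to −0.140, against −0.028 with TMM. At P56, 15 to 20 members rest on fewer than 10 counts in a library, which limits the precision of their falls.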
